A study of Mus musculus with 12 samples.

Results

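The UDP-glucuronosyltransferases (Ugt), sulfotransferases (Sult), carboxylesterases (Ces), flavin-containing monooxygenases (Fmo), aldehyde dehydrogenases (Aldh), alcohol dehydrogenases (Adh) and aldo-keto reductases (Akr) were followed in mouse liver as 7 families, chosen by gene symbol among the protein-coding rows of the table and leaving out Akr1d1. They came to 112 of the 54532 genes: 22 Ugt, 21 Sult, 19 Ces, 7 Fmo, 21 Aldh, 6 Adh and 16 Akr genes. All livers came from Apoe knockout mice, which lack apolipoprotein E, a carrier protein of blood lipids. The 6 control livers had received Gfp-AAV, an adeno-associated virus carrying Gfp, and the other 6 had received Rspo2-AAV. Rspo2 encodes the secreted factor R-spondin 2, which amplifies Wnt/beta-catenin signalling, and the series is titled for its effect on fat storage in the liver. The sex, age and diet of the mice, the promoter of the vectors and the time after injection were not given in the sources used here. The labels number the controls 1 to 6 and the Rspo2-AAV samples 1, 2, 4, 5, 6 and 7. Whether the 12 samples are 12 animals is not stated in them, so the p-values rest on a spread among samples that may be technical.

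The families share the task of making fat-soluble molecules easier to excrete or of clearing reactive intermediates. Ugt enzymes sit in the endoplasmic reticulum and attach a sugar, mostly glucuronic acid, to bilirubin, steroids, bile acids and drugs, and Sult enzymes attach sulfate to phenols, steroids and bile acids in the cytosol. Ces enzymes split esters, including drug esters and stored lipids. Fmo enzymes oxidise nitrogen and sulfur atoms, while Adh, Aldh and Akr enzymes interconvert alcohols, aldehydes, ketones and acids. Hepatocytes around the central vein and around the portal vein express different sets of such enzymes, Wnt signalling maintains the pericentral set, and several members are known to differ between male and female mouse liver.

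Several libraries stood apart within their groups. Values are FPKM, read fragments scaled to gene length and to library size, and each library held 14295644 to 22195576 reads. Rspo2 had 0 reads in each control library and 49.9 to 573 FPKM in the Rspo2-AAV libraries. Xist, a long RNA made by the inactive X in female cells, had 42.0 FPKM in control 3, 28.0 FPKM in Rspo2-AAV 1 and 5.57 FPKM in Rspo2-AAV 2, and at 0.0186 FPKM or less in the other 9 libraries. Those 9 hold no Rspo2-AAV library numbered under 4, so a difference between label numbers and the presence of Xist cannot be told apart within the Rspo2-AAV group. Pancreatic acinar markers took 6.55% of reads in Rspo2-AAV 4, 0.587% in Rspo2-AAV 5 and at most 0.0676% elsewhere. The hepatocyte markers were high in all libraries, with a summed level of 22843 to 46621 FPKM in control and 18876 to 41792 FPKM in Rspo2-AAV livers. Of these markers 0 of 6 passed the test described below, which with such a spread does not show that they were unchanged.

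Over the 12 libraries members changed in both directions, with most called falls in the Ugt family and most called rises in the Sult family. This split by family depended on the libraries compared. Of the 112 members, 79 had a mean of at least 0.5 FPKM and were tested, and 18 of these 79 passed the test (limma on log2(FPKM + 0.5), adjusted p under 0.05 over 13447 genes), 8 higher and 10 lower in Rspo2-AAV livers. Over all tested genes 5.2% passed, 2.55% higher and 2.65% lower. The Ugt family gave 1 rise and 7 falls among 15 tested members, with a median log2 change of -0.62. The Sult family gave 4 rises and 1 fall among 14, with a median of 1.09. In the Ces family 1 of 13 fell and none rose, with a median of -0.62. The Aldh family gave 2 rises and 1 fall among 15, with a median of -0.08, and the Adh family 1 rise among 4, with a median of 0.08. Neither the 5 Fmo members (median 0.65) nor the 13 Akr members (median -0.09) included a call, although 1 Fmo and 4 Akr members had an unadjusted p under 0.05, and limma-voom on recovered reads also called none. The median over the 79 members was -0.13, beside 0.00 over all tested genes. In 6 tested Sult members, Sult2a1, Sult2a2, Sult2a3, Sult2a5, Sult3a2 and Sult5a1, the mean of 1 group was under 0.5 FPKM, so they entered the test through the other group, and the Sult median rests partly on them.

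**Figure D1:**
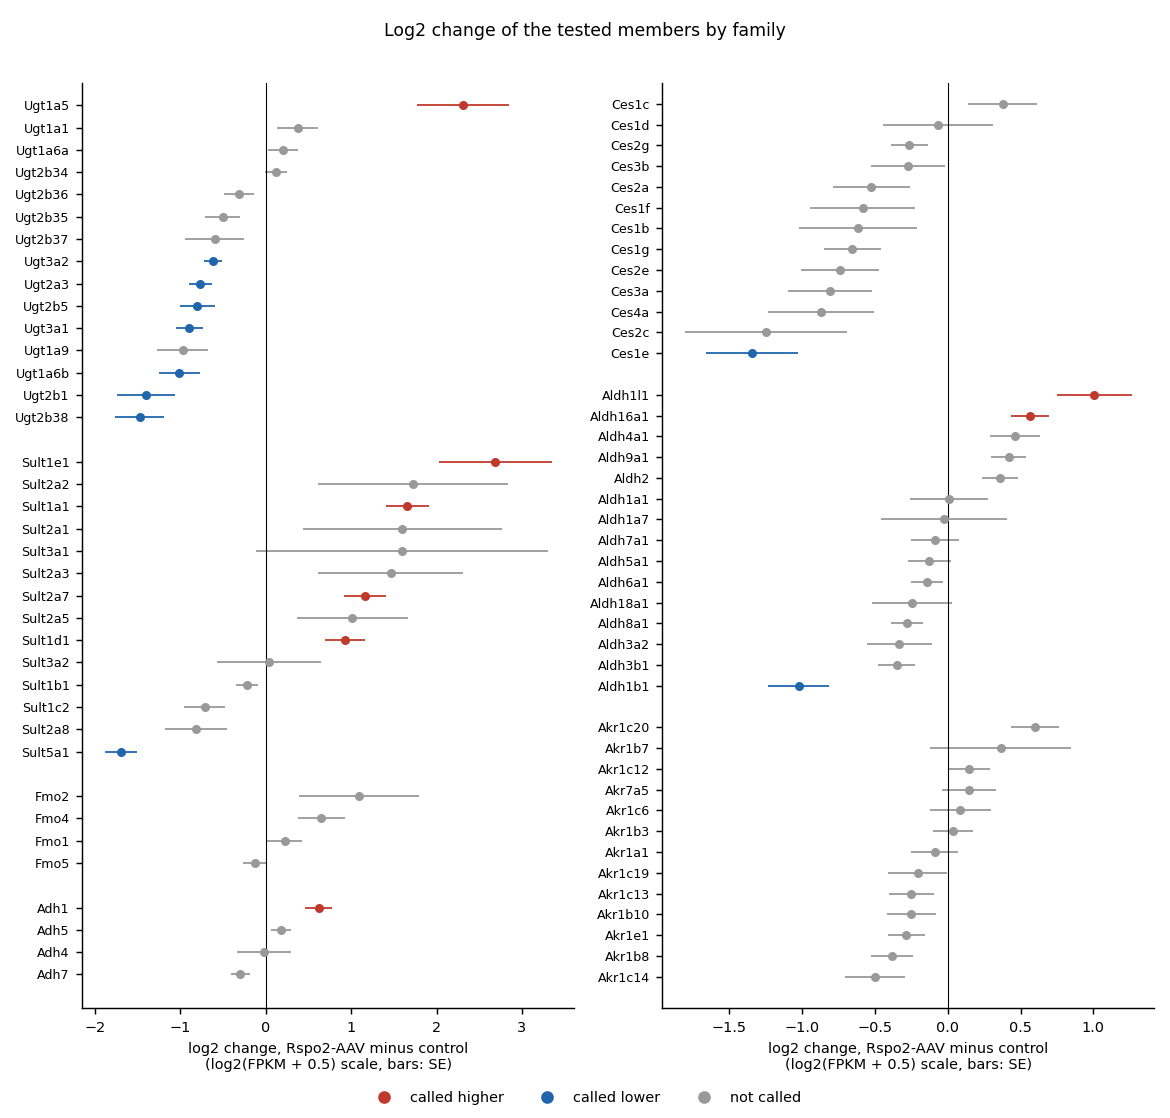
Log2 change (Rspo2-AAV minus control, on the log2(FPKM + 0.5) scale) of 78 of the 79 tested members, by family, with each point 1 gene, the bar its standard error, and red or blue points those higher or lower with an adjusted p under 0.05. Of the 8 called Ugt members 7 lie below 0, and of the 5 called Sult members 4 lie above 0.

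The counts depended on which libraries were compared. With the control and Rspo2-AAV libraries numbered 4 to 7 alone (3 against 4), 11 members rose and 22 fell, against 13.3% of all tested genes called (6.34% higher and 6.92% lower), and all 18 calls were among them. Without the 3 libraries holding Xist, 12 rose and 22 fell, against 12.8% of all genes (6.0% higher and 6.75% lower), again including the 18. The split by family moved as well. Among numbers 4 to 7 the Ugt family gave 1 rise and 8 falls, and the Ces family 0 rises and 8 falls. The Sult family gave 4 rises and 3 falls there, with a median log2 change of 0. Without the libraries holding Xist, Ugt gave 1 rise and 8 falls, Ces 0 and 9, and Sult 5 and 3 (Sult median 0). The minimum of 0.5 FPKM was taken over all 12 libraries in these subsets. Sult3a1, 1 of the 12 rises, met it only through the 3 libraries left out. In the libraries kept it had 0 reads in controls and 17 reads in all in Rspo2-AAV 4 to 7. With numbers 1 to 3 alone (3 against 2), limma called 0 members and 0 of 13447 genes, with 13 members and 955 genes at an unadjusted p under 0.05. Without Rspo2-AAV 4 and 5, the libraries with the most acinar reads, 1 member rose and 4 fell, against 1.76% of all genes (0.87% higher and 0.892% lower). Leaving out 1 library lowered the count of member calls by more than 1.5 times in 7 fits: to 9 without control 2 (2.6% of all genes called), control 4 (2.89%) or control 6 (2.66%), to 10 without control 5 (3.36%) or Rspo2-AAV 7 (3.01%), to 8 without Rspo2-AAV 5 (2.57%) and to 7 without Rspo2-AAV 6 (2.47%). Fewer rises passed after rescaling each library to TPM, so that all libraries had the same sum. The minimum and the pseudocount of 0.5 were then applied to TPM, and 15770 genes and 83 members were tested. In that fit 1 member rose and 8 fell (11.1% of calls higher, against 44.4% before), beside 2.48% of all genes called (1.27% higher and 1.21% lower). The parts of the scaling and of the changed filter were not told apart. The 7 rises that no longer passed kept log2 changes of 0.58 to 2.99, with adjusted p from 0.05003 to 0.107. Pseudocounts of 0.1 and 1 and limma-voom left 18 member calls (5.18%, 5.02% and 4.97% of all genes called), a minimum mean of 2 FPKM left 16 (6.14%), no minimum left 8 (1.4%) and a replicate block gave 10 (2.22%). Gm23935, a row annotated as a miRNA gene, took 5.59% to 26.3% of the summed FPKM of a library, a share that this rescaling passes on to all other genes.

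The 7 Ugt members that fell were Ugt2b1, Ugt2b5, Ugt2b38, Ugt2a3, Ugt3a1, Ugt3a2 and Ugt1a6b. Ugt2b5, which had the highest mean of the family, ranged in control livers from 218 to 520 FPKM with a median of 373, and in Rspo2-AAV livers from 155 to 251 FPKM with a median of 219. The groups overlapped, and the log2 change was -0.80 ± 0.21 (SE, limma adjusted p = 0.0456). The call held in 2 of 12 fits that each left out 1 library, those without control 3 or Rspo2-AAV 2, and the adjusted p reached 0.105 in the others. For Ugt2b1 the mean was 255 ± 79.7 FPKM in control and 98.0 ± 43.1 FPKM in Rspo2-AAV livers (SD, n = 6 each), and its log2 change was -1.41 ± 0.34 (limma adjusted p = 0.0335). Control 3, at 98.8 FPKM, lay far below the other controls (260 to 317 FPKM) and inside the Rspo2-AAV range of 46.1 to 162 FPKM. Without control 3 the log2 change of Ugt2b1 was -1.66, and its call was lost without control 1, 2, 4, 5 or 6 or Rspo2-AAV 5, 6 or 7, with adjusted p up to 0.0781. Ugt2b38 fell from a median of 13.6 FPKM (4.75 to 20.5) to 4.25 FPKM (2.34 to 5.11), a log2 change of -1.48 ± 0.29 (adjusted p = 0.0118), and passed in all 12 fits. Ugt2b5 and Ugt2b38 share 41.7% and 37.4% of their 50-base exonic words with other genes, so reads may have been split between near-identical copies.

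Ugt2a3, Ugt3a1 and Ugt3a2 separated the groups completely. Of all tested genes 3.24% had groups that did not overlap, 1.62% on each side, and among the members these were 6 with Rspo2-AAV above and 6 with Rspo2-AAV below. Ugt2a3 (chr5:87324972-87337195, minus strand, GRCm38) ranged from 83.2 to 129 FPKM in control livers (median 123) and from 55.1 to 81.6 FPKM in Rspo2-AAV livers (median 65.9), a log2 change of -0.77 ± 0.14 (adjusted p = 0.00749). Ugt3a1 and Ugt3a2 lie next to each other on chromosome 15 and encode transferases of a group that uses sugar donors other than UDP-glucuronic acid. Ugt3a1 (chr15:9276888-9315032) ranged from 24.5 to 32.4 FPKM in control livers (median 29.1) and from 11.8 to 23.8 FPKM in Rspo2-AAV livers (median 14.8), a log2 change of -0.90 ± 0.16 (adjusted p = 0.00749). Ugt3a2 (chr15:9335550-9370955) ranged from 145 to 183 FPKM (median 156) and from 87.6 to 120 FPKM (median 102), a log2 change of -0.62 ± 0.11 (adjusted p = 0.0072). Every Rspo2-AAV library lay below every control library for these genes. Their calls held in all 12 fits leaving out 1 library and without Rspo2-AAV 4 and 5, where the adjusted p ran from 0.0364 to 0.0442. After rescaling to TPM Ugt3a2 kept its direction (-0.61) but missed the threshold (adjusted p = 0.104). Ugt2b36, the second most abundant member, was at 167 to 386 FPKM in control and 179 to 239 FPKM in Rspo2-AAV livers and did not pass (-0.31 ± 0.17, adjusted p = 0.326), nor did Ugt2b34 (0.12 ± 0.13, adjusted p = 0.654). Among numbers 4 to 7, Ugt2b35 also fell, by 0.62 on the log2 scale (adjusted p = 0.035).

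The Ugt1a genes share 1 stretch of chromosome 1 (plus strand), where each has its own promoter and first exon and all use the same downstream exons. In the annotation 50.3% to 60.6% of the exonic bases of these genes are shared with other genes on the same strand. Counting both strands, the share is 82.7% for Ugt1a1 and 64.3% for Ugt1a10, so how shared reads were divided, which the sources used here do not give, bears on each value. Ugt1a5 rose from a control median of 5.26 FPKM (0.865 to 7.60) to 21.7 FPKM (5.23 to 33.0) in Rspo2-AAV livers, a log2 change of 2.31 ± 0.54 (adjusted p = 0.029). Rspo2-AAV 2, at 5.23 FPKM, lay inside the control range, and the other 5 Rspo2-AAV libraries lay above it. The call was lost without control 2 or any 1 of Rspo2-AAV 4 to 7, with adjusted p up to 0.0706. Ugt1a6b, an enzyme for planar phenols, fell from a median of 19.0 FPKM (11.7 to 22.7) to 9.85 FPKM (3.96 to 10.8), with no overlap and a log2 change of -1.01 ± 0.24 (adjusted p = 0.0308). That call was lost without control 2, 4, 5 or 6 or Rspo2-AAV 5 or 6, with adjusted p up to 0.0727. Ugt1a9 was at a median of 7.88 FPKM in control and 3.94 FPKM in Rspo2-AAV livers and missed the threshold (-0.97 ± 0.30, adjusted p = 0.0824). Ugt1a1, the bilirubin transferase, was at 44.5 and 52.0 FPKM (0.37 ± 0.24, adjusted p = 0.404).

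Because these genes share exons but not promoters, the 250 bases upstream of the start of Ugt1a5, which rose, are shown beside those of Ugt1a9 and Ugt1a1, which did not pass, and that of Ugt3a1, which fell. Ugt1a6b and Ugt3a2 were not matched. The windows are counted back from the RefSeq start (GRCm38.p6), which for Ugt3a1 lies inside the span of the gene in the deposited table, so that its window overlaps the gene as measured. They are written 5′ to 3′ on the strand of the gene, with matches to any of 4 searched motifs in capitals.
Ugt1a5, chr1:88165762-88166011, plus strand: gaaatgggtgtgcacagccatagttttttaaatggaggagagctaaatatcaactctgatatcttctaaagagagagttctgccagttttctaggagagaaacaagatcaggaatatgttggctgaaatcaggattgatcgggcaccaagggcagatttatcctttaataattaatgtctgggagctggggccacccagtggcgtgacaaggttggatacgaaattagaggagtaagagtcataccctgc
Ugt1a9, chr1:88070529-88070778, plus strand: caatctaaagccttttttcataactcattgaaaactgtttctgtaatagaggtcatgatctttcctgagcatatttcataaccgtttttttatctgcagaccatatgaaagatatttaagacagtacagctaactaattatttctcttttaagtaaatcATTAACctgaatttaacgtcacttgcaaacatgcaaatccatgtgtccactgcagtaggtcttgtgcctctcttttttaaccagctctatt
Ugt1a1, chr1:88211709-88211958, plus strand: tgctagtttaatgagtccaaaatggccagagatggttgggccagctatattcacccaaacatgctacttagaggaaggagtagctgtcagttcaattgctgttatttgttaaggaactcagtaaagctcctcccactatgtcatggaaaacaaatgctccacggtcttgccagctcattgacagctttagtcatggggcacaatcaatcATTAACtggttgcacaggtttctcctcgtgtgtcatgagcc
Ugt3a1, chr15:9279579-9279828, plus strand: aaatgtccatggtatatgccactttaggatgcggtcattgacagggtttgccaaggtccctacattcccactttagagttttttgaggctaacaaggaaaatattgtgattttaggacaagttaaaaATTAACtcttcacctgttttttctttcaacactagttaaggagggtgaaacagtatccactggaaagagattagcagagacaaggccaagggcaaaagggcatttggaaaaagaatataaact
The motifs, searched on both strands with overlaps allowed, were ATCAAAG (TCF/LEF), CAAAGTCCA (HNF4A direct repeat), GTTAAT (HNF1 core motif) and TTCNNNGAA (STAT5). What is called the HNF1 core motif here is only a part of the full HNF1 site, and it was chosen after the sequences had been read. Matches to it stand in the windows of Ugt1a9, Ugt1a1 and Ugt3a1, and no searched motif is found in that of Ugt1a5. Of 32851 RefSeq windows of this length, 6.43% hold the HNF1 core motif, 3.21% the TCF/LEF motif, 7.02% the STAT5 motif and 0.384% the HNF4A repeat. RefSeq windows matched 91 members, and of their 99 windows 18 hold the HNF1 core motif, 3 the TCF/LEF motif, 9 the STAT5 motif and 0 the HNF4A repeat.

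Sult1a1, the phenol sulfotransferase and the most abundant member of its family, rose in Rspo2-AAV livers. It lies at chr7:126672865-126676432 on the minus strand and ranged from 89.1 to 308 FPKM in control livers (median 126) and from 347 to 490 FPKM in Rspo2-AAV livers (median 448). Every Rspo2-AAV library lay above every control library, and the highest control was control 3. The log2 change was 1.66 ± 0.25 (limma adjusted p = 0.00338), and the call held in all 12 fits leaving out 1 library, with log2 changes of 1.54 to 1.90. It also held without Rspo2-AAV 4 and 5 (1.68, adjusted p = 0.0243) and after rescaling to TPM (1.67, adjusted p = 0.0067). Its share of the summed Sult FPKM was 36.0% in control and 59.0% in Rspo2-AAV livers. Sult5a1 moved the other way at a far lower level. It lies at chr8:123140192-123158315 on the minus strand and had 1.21 to 3.46 FPKM in control livers (median 1.93) and 0.152 to 0.442 FPKM in Rspo2-AAV livers (median 0.285), from 12 to 217 reads per library. Its log2 change was -1.70 ± 0.19 (adjusted p = 0.00104), the smallest adjusted p among the members, and its groups did not overlap. Its log2 change was -1.25 with a pseudocount of 1 and -2.51 with 0.1, and the call held with both. The upstream windows of the genes with the 2 smallest adjusted p-values among the members are given in the same form. Here too the RefSeq start lies inside the span of the gene in the deposited table, so each window partly overlaps the gene as measured.
Sult1a1, chr7:126676419-126676668, minus strand: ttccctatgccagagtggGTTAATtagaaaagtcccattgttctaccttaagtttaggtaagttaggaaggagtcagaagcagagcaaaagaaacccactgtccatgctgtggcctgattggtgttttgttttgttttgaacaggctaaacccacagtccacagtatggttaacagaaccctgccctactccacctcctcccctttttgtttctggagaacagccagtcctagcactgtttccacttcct
Sult5a1, chr8:123158281-123158530, minus strand: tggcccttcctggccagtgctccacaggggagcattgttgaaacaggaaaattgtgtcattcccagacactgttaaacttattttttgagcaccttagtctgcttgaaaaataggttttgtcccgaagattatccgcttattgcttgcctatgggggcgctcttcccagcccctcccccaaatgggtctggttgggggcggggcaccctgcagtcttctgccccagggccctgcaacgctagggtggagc
A match to the HNF1 core motif stands in the Sult1a1 window and no searched motif in that of Sult5a1.

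Sult1d1, Sult1e1 and Sult2a7 also rose. Sult1d1, which acts on catecholamines and other phenols, ranged from 26.8 to 87.5 FPKM in control livers (median 43.4) and from 72.5 to 121 FPKM in Rspo2-AAV livers (median 78.8), a log2 change of 0.93 ± 0.23 (adjusted p = 0.0386). Only control 3, at 87.5 FPKM, lay inside the Rspo2-AAV range, and the call held in 2 of 12 fits leaving out 1 library, those without control 1 or control 3 (adjusted p up to 0.0925 in the others). Sult1e1, the estrogen sulfotransferase, ranged from 0.113 to 10.6 FPKM in control livers (median 0.963) and from 5.28 to 50.4 FPKM in Rspo2-AAV livers (median 11.3). Control 3 and Rspo2-AAV 1 were the highest of their groups, and the log2 change was 2.69 ± 0.66 (adjusted p = 0.0363), held in 5 of the 12 fits. Among the 9 libraries without Xist the change of Sult1e1 was 2.65 ± 0.46 (adjusted p = 0.00624). The call over the 12 libraries was lost without control 2, 4, 5 or 6 or Rspo2-AAV 4, 5 or 6, with adjusted p up to 0.0868. Sult2a7, a hydroxysteroid sulfotransferase gene, ranged from 0.324 to 1.49 FPKM in control livers and from 1.53 to 4.03 FPKM in Rspo2-AAV livers, with no overlap, 8 to 79 reads per library and a log2 change of 1.16 ± 0.25 (adjusted p = 0.0181). It was lost only without Rspo2-AAV 6 (adjusted p = 0.0513) among the single-library fits. Sult2a8, the second most abundant member of the family, was at a median of 187 FPKM in control and 100.5 FPKM in Rspo2-AAV livers (-0.81 ± 0.36, adjusted p = 0.215). Among numbers 4 to 7 it fell by 1.17 on the log2 scale (adjusted p = 0.0198), and Sult1c2 fell by 1.23 (adjusted p = 0.0214).

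**Figure D2:**
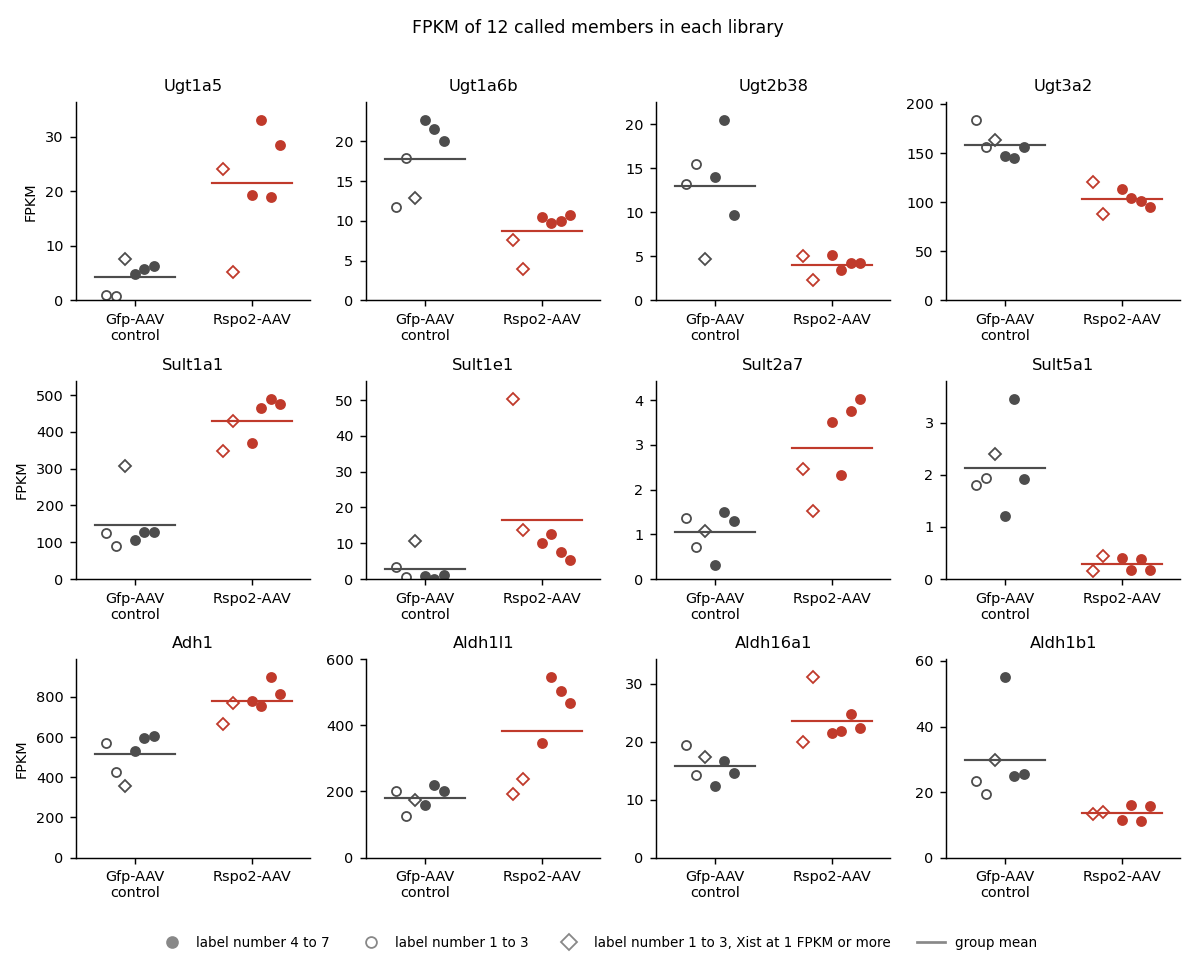
FPKM of 12 called members in each library, with the horizontal line the group mean and open or diamond symbols the libraries numbered 1 to 3, diamonds those with Xist at 1 FPKM or more. For Sult1a1 the Rspo2-AAV libraries (347 to 490 FPKM) lie above all controls, and for Ugt3a2 (87.6 to 120 FPKM) below all controls.

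Several Sult members and Fmo2 were high in the libraries with Xist, in both groups. Sult3a1 was at 91.6 FPKM in control 3, 184 FPKM in Rspo2-AAV 1 and 41.6 FPKM in Rspo2-AAV 2, with 0 reads in the other 5 controls and 17 reads in all in Rspo2-AAV 4 to 7. Fmo2 was at 20.8, 36.1 and 8.90 FPKM there and at 0.982 to 3.78 FPKM elsewhere. Sult3a1, Sult2a1 and Sult2a2 are known to be higher in female than in male mouse liver. In Rspo2-AAV 2 the level was a fraction of that in Rspo2-AAV 1: the ratio was 0.199 for Xist, 0.226 for Sult3a1, 0.247 for Fmo2, 0.273 for Sult2a1 and 0.257 for Sult2a2. The fraction was not the same for all members: it was 0.235 for Sult2a6, 0.314 for Sult2a5, 0.365 for Sult3a2 and 0.632 for Fmo1. Fmo4 was higher in Rspo2-AAV 2 (1.22). Neither Fmo2 nor Sult3a1 passed the test over the 12 libraries, with log2 changes of 1.09 ± 0.71 (adjusted p = 0.406) and 1.60 ± 1.71 (adjusted p = 0.643).

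The Sult2a members of this set were not alike in the control and Rspo2-AAV libraries with Xist. Sult2a1, a sulfotransferase of bile acids and steroids, was at 1.56 FPKM (29 reads) in control 3, 59.3 FPKM (1527 reads) in Rspo2-AAV 1 and 16.2 FPKM in Rspo2-AAV 2, with 2 reads in all in the other 9 libraries. Sult2a2 was at 0.887, 53.6 and 13.8 FPKM, and 62.1% of its 50-base words are shared with other genes. Sult2a5 was at 0.209, 7.73 and 2.43 FPKM, while Sult2a3 (19.7 and 4.92 FPKM) and Sult2a6 (1.14 and 0.269 FPKM) had reads in Rspo2-AAV 1 and 2 and none in control 3 or elsewhere. So Rspo2-AAV 1 had 38.1 times the Sult2a1 and 60.4 times the Sult2a2 level of control 3, but 0.667 times its Xist and 2.01 times its Sult3a1. Sult3a2 went the other way, with 4.53 FPKM (77 reads) in control 3 and 1.92 FPKM (45 reads) in Rspo2-AAV 1. With 1 such control the differences have no replicate check, and their cause was not tested. Aldh1a7 was lowest in the 3 libraries, at 34.8, 29.7 and 71.7 FPKM against 106 to 156 FPKM elsewhere, and Ces2c was at 2.69 to 3.65 FPKM there against 7.44 to 37.0 FPKM.

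**Figure D3:**
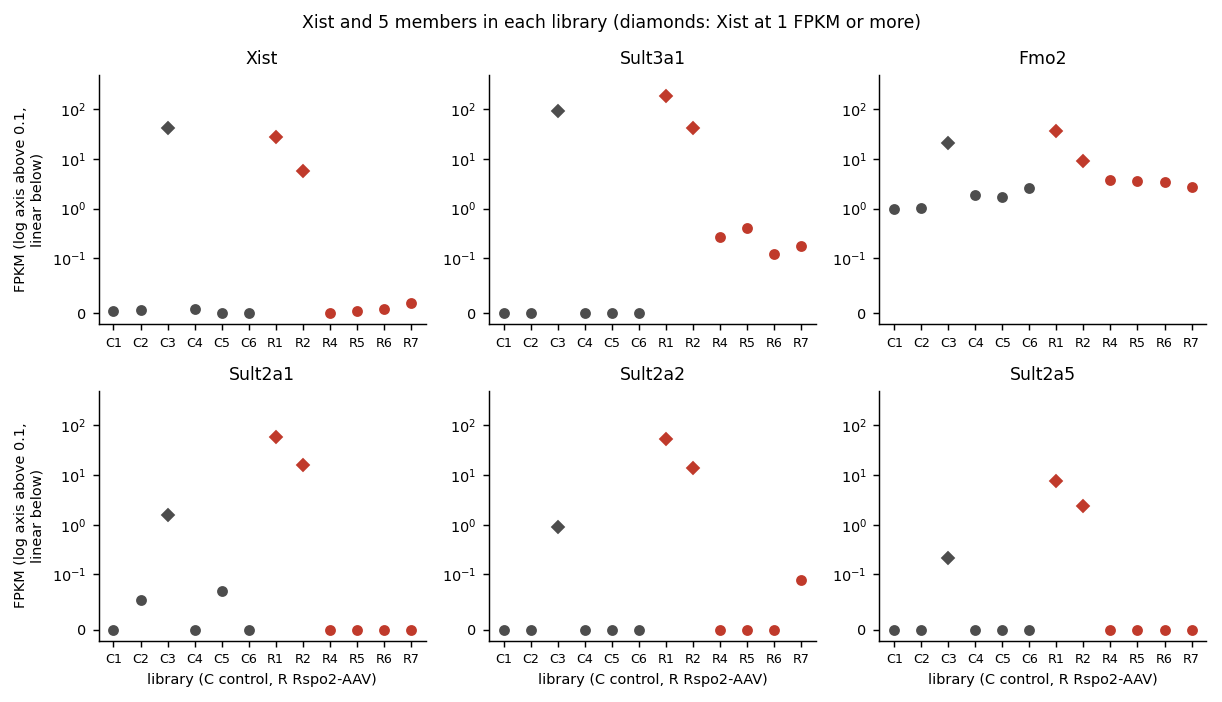
FPKM of Xist, Fmo2 and 4 Sult members in each of the 12 libraries, on an axis that is logarithmic above 0.1 FPKM and linear below. Control 3 and Rspo2-AAV 1 and 2 stand above the other 9 libraries for Xist and Sult3a1, and Sult2a1 is low in control 3 (1.56 FPKM) beside Rspo2-AAV 1 (59.3 FPKM).

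Fmo5, the most abundant Fmo member, differed by less than the spread between libraries, with 176 to 303 FPKM in control and 183 to 222 FPKM in Rspo2-AAV livers (-0.13 ± 0.14, adjusted p = 0.644). Fmo1 had control values of 24.7 to 54.0 FPKM and Rspo2-AAV values of 31.3 to 58.6 FPKM, the highest in control 3 and Rspo2-AAV 1. Its log2 change was 0.22 ± 0.20 (adjusted p = 0.573). Fmo4 was at medians of 1.60 and 2.87 FPKM (0.65 ± 0.28, adjusted p = 0.199). Control 3, at 4.11 FPKM, had the highest Fmo4 level of all libraries, and without control 3 Fmo4 was called higher. Among numbers 4 to 7 Fmo2 rose by 0.60 ± 0.16 on the log2 scale (adjusted p = 0.0496).

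Carboxylesterases showed a fall of 1 member over the 12 libraries and of 8 members among numbers 4 to 7. Ces1e (chr8:93201218-93229619, minus strand) was at 39.2, 28.0, 21.7, 71.9, 61.8 and 63.8 FPKM in controls 1 to 6 and at 18.8, 29.5, 20.3, 11.6, 13.4 and 13.0 FPKM in Rspo2-AAV 1, 2, 4, 5, 6 and 7. Controls 1 to 3 lay nearer to the Rspo2-AAV libraries than controls 4 to 6 did, and the ranges overlapped. Its log2 change was -1.34 ± 0.31 over the 12 libraries (adjusted p = 0.0301), -2.17 ± 0.18 among numbers 4 to 7 (adjusted p = 0.00124) and -0.28 ± 0.34 among numbers 1 to 3 (adjusted p = 0.882). The call over the 12 libraries was lost without control 4, 5 or 6 or Rspo2-AAV 5, 6 or 7, with adjusted p up to 0.0726. The 8 members that fell among numbers 4 to 7 were Ces1b, Ces1d, Ces1e, Ces1f, Ces1g, Ces2a, Ces2e and Ces3a, with log2 changes from -2.17 to -0.76. Ces1d and Ces1g act on triglycerides and other lipid esters. Ces2a was at 72.8 to 84.6 FPKM in controls 4 to 6 and 31.0 to 36.1 FPKM in Rspo2-AAV 4 to 7 (-1.19 ± 0.09, adjusted p = 0.000746). Rspo2-AAV 2, at 86.3 FPKM, had the highest Ces2a level of all libraries, and the change over the 12 libraries was -0.53 ± 0.26 (adjusted p = 0.272). Ces1d was at 175 to 220 FPKM in controls 4 to 6 and 62.9 to 128 FPKM in Rspo2-AAV 4 to 7 (-1.06 ± 0.24, adjusted p = 0.0301). In numbers 1 to 3 it was at 67.2, 74.6 and 129 FPKM in controls and 239.6 and 202 FPKM in Rspo2-AAV livers, and its change there was 1.34 ± 0.36 (adjusted p = 0.497). The direction of Ces1d therefore differed between the sets of numbers, a difference that was not tested.

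Ces1c and Ces3b, both abundant, did not pass in either set. Ces1c, a secreted esterase of plasma and the most abundant member, was at 408 to 1002 FPKM in control and 673 to 1311 FPKM in Rspo2-AAV livers (0.38 ± 0.24, adjusted p = 0.39). Its 3 highest libraries were control 3 and Rspo2-AAV 1 and 2, those with Xist, and Ces1c made up 31.8% of the summed Ces FPKM in control and 48.2% in Rspo2-AAV livers. Ces3a was at 341 to 936 FPKM in control and 306 to 813 FPKM in Rspo2-AAV livers, with control 3 lowest in its group and Rspo2-AAV 2 highest in its own. Over the 12 libraries the change of Ces3a was -0.80 ± 0.29 (adjusted p = 0.125), and without the 3 libraries with Xist it was -1.18 ± 0.15 (adjusted p = 0.00118). Ces3a and Ces3b share 25.6% and 26.2% of their 50-base words with other genes, and Ces3b was at medians of 156 and 122 FPKM (-0.27 ± 0.25, adjusted p = 0.582). Ces1f (22.1 to 137 against 39.5 to 69.3 FPKM) and Ces2e (31.8 to 87.6 against 22.4 to 51.9 FPKM) missed the threshold over the 12 libraries, and control 3 was the lowest control for both. Ces2b, under the level for testing, had 0.0482 to 1.39 FPKM (3 to 70 reads) in control livers and 0 to 0.0382 FPKM (0 to 2 reads) in Rspo2-AAV livers. Its ranges did not overlap, but this rests on 3 reads in control 3 against 2 reads in Rspo2-AAV 2.

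**Figure D4:**
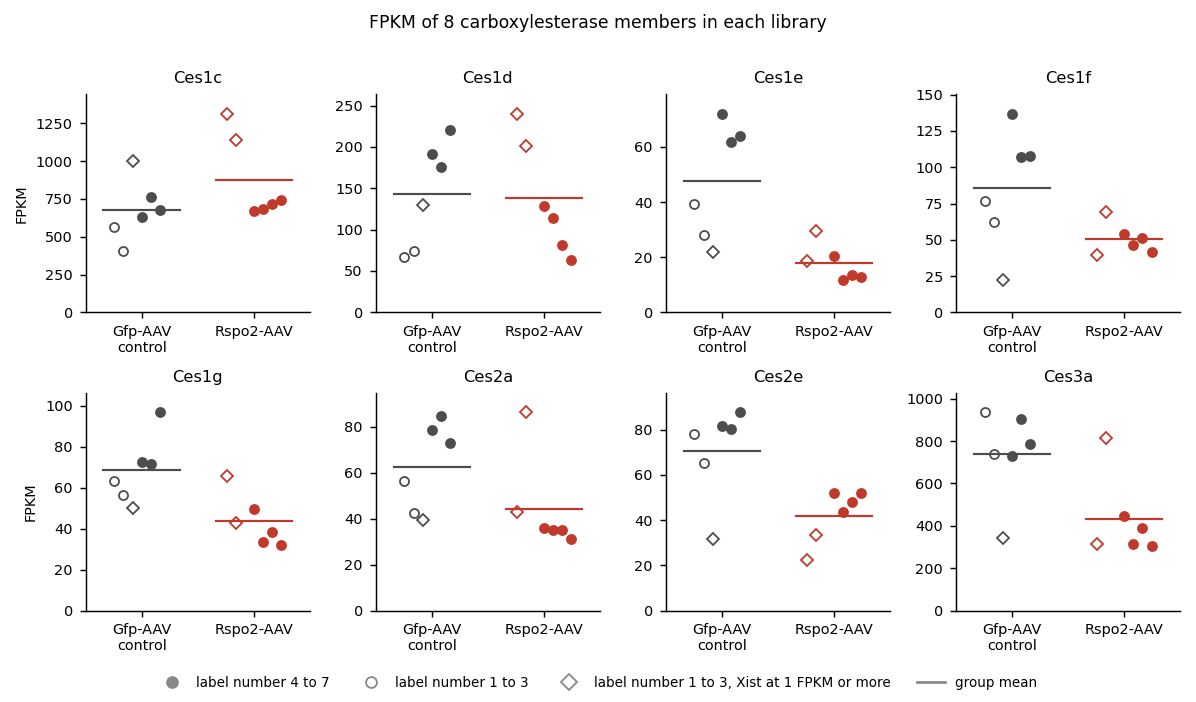
FPKM of 8 carboxylesterases in each library, with symbols marking label numbers and the line the group mean. For Ces2a, controls 4 to 6 (72.8 to 84.6 FPKM) stand apart from Rspo2-AAV 4 to 7 (31.0 to 36.1 FPKM), while Rspo2-AAV 2 reaches 86.3 FPKM.

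In the aldehyde dehydrogenase family, 1 mitochondrial enzyme fell and a folate enzyme rose. Aldh1b1 (chr4:45799022-45804604, plus strand), a mitochondrial enzyme that oxidises acetaldehyde, ranged from 19.4 to 55.0 FPKM in control livers (median 25.2) and from 11.2 to 16.0 FPKM in Rspo2-AAV livers (median 13.7). The groups did not overlap, control 4 was far above the other controls, and the log2 change was -1.02 ± 0.21 (adjusted p = 0.0151). Its call held in all 12 fits leaving out 1 library, but not without both Rspo2-AAV 4 and 5 (-1.03, adjusted p = 0.0673). Aldh1l1 (chr6:90486427-90600203, plus strand), which oxidises formyl groups carried on tetrahydrofolate, ranged from 126 to 220.2 FPKM in control livers (median 187) and from 193 to 546 FPKM in Rspo2-AAV livers (median 407). Rspo2-AAV 1 and 2 (193 to 239 FPKM) were near the controls and Rspo2-AAV 4 to 7 (346 to 546 FPKM) were above all of them. The log2 change was 1.01 ± 0.26 over the 12 libraries (adjusted p = 0.0423), 1.26 ± 0.18 among numbers 4 to 7 (adjusted p = 0.00628) and 0.39 ± 0.31 among numbers 1 to 3 (adjusted p = 0.82). That call held in 3 of 12 fits leaving out 1 library, those without control 1, Rspo2-AAV 1 or Rspo2-AAV 2, and its adjusted p reached 0.102.

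Aldh16a1, Aldh2 and Aldh9a1 had every Rspo2-AAV library above every control library. Aldh16a1, a member known to lack the catalytic cysteine, ranged from 12.3 to 19.5 FPKM and from 19.9 to 31.1 FPKM and passed the test (0.57 ± 0.13, adjusted p = 0.0301). It did so in 5 of the 12 single-library fits and was lost without control 2, 4, 5 or 6 or Rspo2-AAV 5, 6 or 7, with adjusted p up to 0.0763. Aldh2, the main mitochondrial enzyme for acetaldehyde and the most abundant member, ranged from 392 to 559 FPKM in control and 566 to 647 FPKM in Rspo2-AAV livers and did not pass (0.36 ± 0.12, adjusted p = 0.11). Aldh9a1, an enzyme of carnitine synthesis, ranged from 63.4 to 84.4 FPKM and from 85.4 to 121 FPKM and missed the threshold (0.42 ± 0.12, adjusted p = 0.0606). Among numbers 4 to 7 Aldh9a1 rose by 0.46 ± 0.08 (adjusted p = 0.0112) and Aldh4a1, an enzyme of proline breakdown, by 0.45 ± 0.07 (adjusted p = 0.00679). Aldh5a1, which oxidises succinate semialdehyde, fell there by 0.31 on the log2 scale (adjusted p = 0.0433). Aldh1a1, the cytosolic retinaldehyde enzyme, was at medians of 293 and 233 FPKM with a log2 change of 0.01 ± 0.27 (adjusted p = 0.99). Its level in control 3 was 102 FPKM, against 205 to 342 FPKM in the other controls. Aldh18a1 and Aldh1l2, at 2.67 and 0.906 FPKM, were highest in Rspo2-AAV 4, the library with the most acinar reads (summed acinar markers 51927 FPKM), and the part of that RNA in those values was not tested.

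Adh1, the main ethanol-oxidising enzyme of liver, rose, and other alcohol dehydrogenases did not pass. Adh1 (chr3:138260991-138290698, plus strand) ranged from 354 to 604 FPKM in control livers (median 552) and from 666 to 898 FPKM in Rspo2-AAV livers (median 773). The groups did not overlap, and the log2 change was 0.62 ± 0.16 (adjusted p = 0.038). The call was lost without control 2, 4 or 6 or any 1 of Rspo2-AAV 4 to 7, with adjusted p up to 0.0969. Adh1 made up 77.3% of the summed Adh FPKM in control and 83.9% in Rspo2-AAV livers. Adh5, which clears formaldehyde bound to glutathione, was at medians of 58.1 and 66.7 FPKM (0.18 ± 0.12, adjusted p = 0.411). Adh4 was at 91.2 and 79.1 FPKM (-0.03 ± 0.32, adjusted p = 0.974) and Adh7 at 7.10 and 5.78 FPKM (-0.30 ± 0.11, adjusted p = 0.146). For Adh4, control 3 was at 25.6 FPKM and the other controls at 66.5 to 123 FPKM. Without control 3 the log2 change of Adh4 was -0.33 (limma adjusted p = 0.314).

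No aldo-keto reductase passed over the 12 libraries. Akr1c20 came nearest, with 31.3 to 52.8 FPKM in control and 49.9 to 81.8 FPKM in Rspo2-AAV livers (0.60 ± 0.17, adjusted p = 0.0554). Rspo2-AAV 2 and 5, at 49.9 and 51.3 FPKM, lay below control 6, at 52.8 FPKM, and the other 4 lay above every control. Akr1c6, a steroid-reducing enzyme and the most abundant member, was at medians of 498 and 529 FPKM (0.09 ± 0.21, adjusted p = 0.86). Akr1a1, the general aldehyde reductase, and Akr7a5, which reduces aflatoxin dialdehyde, had log2 changes of -0.09 ± 0.16 and 0.14 ± 0.18. Akr1c14, a hydroxysteroid dehydrogenase, was at medians of 84.4 and 55.2 FPKM (-0.50 ± 0.21, adjusted p = 0.187) and fell by 0.75 without the 3 libraries with Xist (adjusted p = 0.016). Among numbers 4 to 7 Akr1c19 fell by 0.60 on the log2 scale (adjusted p = 0.0459).

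Summed over all members, the families came to 7558 FPKM on average in control and 7613 FPKM in Rspo2-AAV livers. The Ugt sum was 1479 ± 260 FPKM in control and 967 ± 82.5 FPKM in Rspo2-AAV livers (SD, n = 6 per group). Control 3, at 1007 FPKM, was the only control inside the Rspo2-AAV range of 853 to 1075 FPKM. The Sult sum was 409 ± 101 and 727 ± 138 FPKM, with control 3 again inside the other group's range. The Adh sum was 665 ± 139 and 929 ± 90.4 FPKM and the Aldh sum 1583 ± 265 and 1885 ± 256 FPKM. The Ces (2120 ± 310 and 1820 ± 527 FPKM), Fmo (301 ± 118 and 283 ± 90.3 FPKM) and Akr sums (1002 ± 272 and 1002 ± 98.0 FPKM) overlapped widely. The sums are descriptions without a test and follow their most abundant members.

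**Figure D5:**
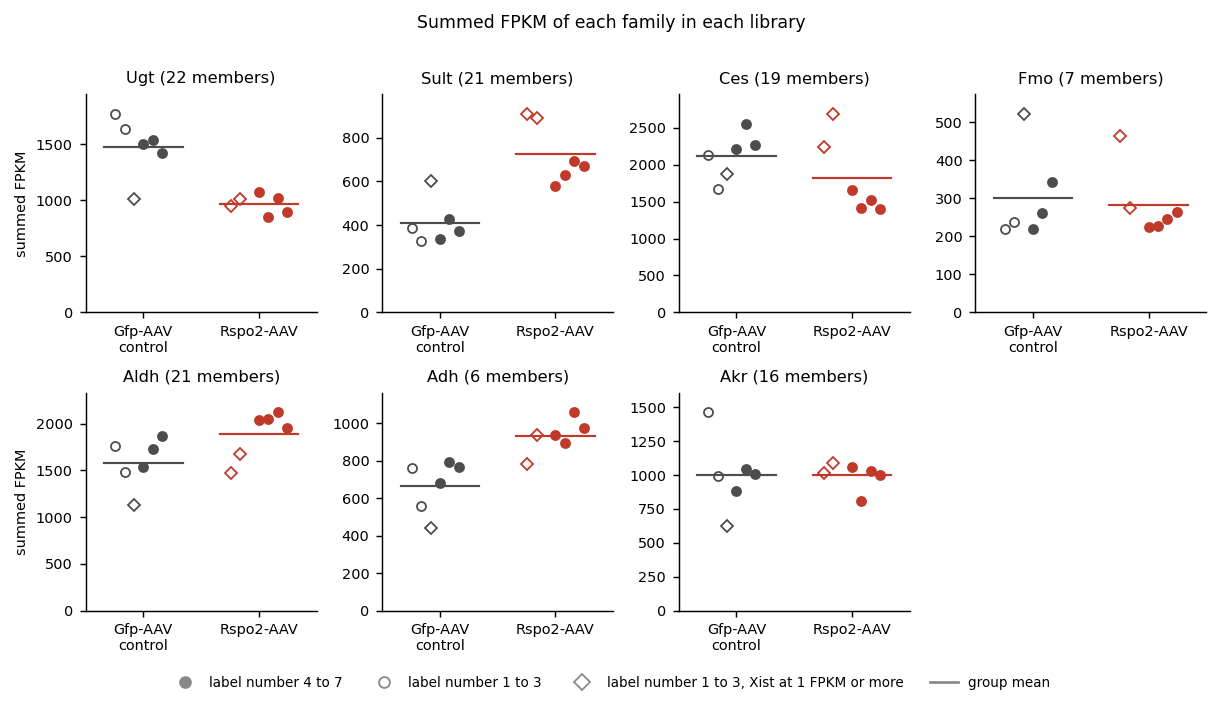
Summed FPKM of all members of each family in each library, with the line the group mean and symbols marking label numbers and Xist. In the Ugt panel the Rspo2-AAV libraries lie between 853 and 1075 FPKM and 5 of 6 controls lie above them.

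Of the 33 members that were not tested, 4 (Ugt2a1, Sult1c1, Ces5a and Fmo9) had 0 reads in every library. The others had at most 121 reads in any library, the highest being Ugt1a7c. Ugt8a, Sult4a1 and Aldh3a1, enzymes of other tissues, had at most 8, 6 and 3 reads.

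Other genes of these reactions were counted by list, beside the 5.2% of all tested genes that passed. None of 8 genes for UDP-glucuronate supply and glucuronide hydrolysis passed, and Ugp2, which makes UDP-glucose, had a log2 change of -0.23. Of 10 genes for sulfate activation and sulfate ester hydrolysis 1 rose, Papss2, which makes the sulfate donor, from 30.8 ± 5.61 to 44.3 ± 4.44 FPKM (0.53 ± 0.13), with no overlap between groups. Among 14 other conjugating enzymes 3 rose and 0 fell: the methyltransferases As3mt (0.99 ± 0.22), Gnmt (0.88 ± 0.20) and Nnmt (1.38 ± 0.35). Among 33 other carbonyl, oxidase and ester-splitting enzymes 3 rose and 5 fell, with Rdh16 (1.04), Nqo1 (0.76) and Dcxr (0.72) higher. Hsd17b13, a lipid droplet enzyme that is also in the periportal marker list, had the largest change of those named, from 153 ± 33.6 to 11.3 ± 10.9 FPKM (-4.26 ± 0.54, limma adjusted p = 0.00156), and Hsd11b1 (-1.05) and the epoxide hydrolase Ephx1 (-1.47) also fell. Of 12 conjugate transporters the organic anion carriers Slco1a4 rose (2.93 ± 0.62) and Slc22a7 fell (-2.16 ± 0.40), and Slco1a4 was as high in control 3 (29.4 FPKM) as in Rspo2-AAV livers (20.6 to 37.2 FPKM). Of 19 transcription factors known to control such enzymes only Ahr, the aryl hydrocarbon receptor, passed (1.01 ± 0.27, adjusted p = 0.048). Other conjugating enzymes had a median log2 change of -0.22 and the carbonyl group one of -0.11, beside 0.00 over all tested genes.

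Markers of hepatocyte position moved with the vector. Of 8 pericentral markers 6 rose, with a summed level of 3869 to 5522 FPKM in control and 7595 to 11574 FPKM in Rspo2-AAV livers, and of 8 periportal markers 6 fell. The summed periportal level overlapped between groups, at 1924 to 2942 FPKM in control and 1023 to 2514 FPKM in Rspo2-AAV livers. Kupffer cell markers were lower in 3 of 6 and stellate cell markers in 2 of 6, and 2 of 4 erythroid markers were higher. In bulk tissue fewer cells of a type and less RNA per cell cannot be told apart, and the part of these markers in the changes of the enzyme families was not tested.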

How the data were processed

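TRIzol RNA was selected for messenger RNA on poly-T beads, per the labels' protocols. The submitters' processing notes name DESeq2 1.20.0, featureCounts 1.5.0-p3 and HISAT2 2.0.5 with the builds GRCm38 and mm10. Strand use and the handling of shared reads were not given in the sources used here. The authors deposited FPKM for 54532 genes in 12 libraries, and multiplying by gene length and by 1 scale per library gave whole reads for 100% of positive values within 0.01 reads.

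Groups of 6 control and 6 Rspo2-AAV libraries were compared on log2(FPKM + 0.5) with limma 3.58.1 (R 4.3.3, lmFit, eBayes with trend). The 13447 genes averaging 0.5 FPKM or more were tested, p-values were adjusted over all of them by Benjamini-Hochberg, and genes under 0.05 were called. All adjusted p-values are from limma, and log2 changes understate those of low genes. The procedure was tested on simulated data, drawn as independent normal values with the mean and spread of each gene. These hold no libraries that stand apart across many genes, so the simulation does not cover that feature of the data. Alternatives were other pseudocounts and filters, scaling to TPM, limma-voom on the recovered reads, a replicate block and subsets of libraries. The subset of numbers 1 to 3 was added after seeing the data. Intervals and floors from reads cover counting error only. Apart from limma-voom on the recovered reads, models of counts were not run because the deposited unit is FPKM.

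The members, the lists and the subsets of libraries were chosen with earlier results of these data known. Named members were those called, those whose groups did not overlap, the 3 most abundant and the largest changes of each family, and members known to be female-biased. A single member is counted in its family but its own values are not reported here. From the lists, called genes were named, up to 6 by smallest p, or else the 2 most abundant. Further members are named as chosen after their values were seen: those called only in a subset of libraries, Ugt1a1, Ugt1a9, Ugt2b34, Sult2a3, Fmo4, Ces1f, Ces2b, Ces2c, Aldh1a7, Aldh18a1, Aldh1l2 and the untested genes. Gene models came from GENCODE M21, in which 108 of 112 members have the deposited length as exonic bases, and exonic words of 50 bases shared with other genes were counted in its transcripts.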

Additional observations from a re-analysis of the deposited data

Results flagged for a closer look

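In 26 instances among 85 groups tested, a single library lay far from the rest of its group. The measure was the gap to the nearest library relative to the range of the group. Chance alone marks about 1 group in 20 only where values are independent and normally spread, so no excess can be read from that rate here. The flagged members were among those named, which were chosen partly for large changes or known female bias. In some groups, such as Sult3a1 in controls, only control 3 had any reads. Control 3 gave 12 of the 26 instances, Rspo2-AAV 1 gave 9, Rspo2-AAV 2 gave 3 and controls 1 and 4 gave 1 each. So 24 came from the 3 libraries with Xist, a share that depends on the choice of members known to be female-biased. The cause of the instances was not tested.

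In control 3, Fmo2 (20.8 FPKM), Sult1a1 (308), Sult1d1 (87.5), Sult1e1 (10.6), Sult3a1 (91.6), Sult3a2 (4.53), Sult2a1 (1.56), Sult2a2 (0.887) and Sult2a5 (0.209) were far above the other controls. There Ugt2b1 (98.8), Ces3a (341) and Sult2a8 (81.4 FPKM) were far below them.

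In Rspo2-AAV 1, Fmo1 (58.6 FPKM), Fmo2 (36.1), Sult1e1 (50.4), Sult2a1 (59.3), Sult2a2 (53.6), Sult2a5 (7.73), Sult2a6 (1.14), Sult3a1 (184) and Sult3a2 (1.92) were far above the other Rspo2-AAV libraries. Rspo2-AAV 2 was high for Ces3a (813 FPKM, against 306 to 448 in the other 5), Sult2a8 (251, against 49.8 to 112) and Adh5 (87.1). Adh5 was also high in control 1 (76.4 FPKM), and Aldh1b1 was high in control 4 (55.0 FPKM, against 19.4 to 29.7 in the other 5).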

How the results depend on the processing

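None of the 18 members called over the 12 libraries changed direction in any other fit that tested it. Pseudocounts of 0.1 and 1 and limma-voom gave the same 18 calls among the members, and a minimum mean of 2 FPKM left 3 Sult calls because fewer members were tested. With no minimum, 195 genes were higher and 216 lower over all genes. Of the members 2 were higher and 6 lower, with 4 Ugt, 3 Sult, 0 Ces, 1 Aldh and 0 Adh calls. With scaling to TPM, which also changed the filter, 200 of 15770 genes were higher and 191 lower. There 1 member was higher, and the families had 5 Ugt, 2 Sult, 1 Aldh and 0 Adh calls. Numbers 4 to 7 alone gave 853 genes higher and 931 lower, 22 members lower, and 8 Ces, 1 Fmo, 6 Aldh and 1 Akr calls. The 9 libraries without Xist gave 807 genes higher and 908 lower, 22 members lower, and 8 Sult, 9 Ces, 1 Fmo, 5 Aldh and 1 Akr calls. The Sult calls of that fit include Sult3a1, which met the minimum level only through the libraries left out. Without Rspo2-AAV 4 and 5 there were 117 genes higher and 120 lower, 1 member higher and 4 lower, and 3 Ugt, 2 Sult, 0 Ces, 0 Aldh and 0 Adh calls, with 32 members at an unadjusted p under 0.05. Numbers 1 to 3 alone gave 0 calls by limma over all genes and in the Ugt, Sult, Ces, Aldh and Adh families. Leaving out 1 library at a time gave 162 to 421 genes higher and 170 to 492 lower, 1 to 9 members higher and 6 to 16 lower. By family these fits gave 4 to 9 Ugt, 2 to 6 Sult, 0 to 6 Ces, 0 to 1 Fmo, 1 to 4 Aldh, 0 to 1 Adh and 0 to 1 Akr calls. Apart from the different numbers of genes or samples tested, the cause was not tested. Members under about 10 reads in a library, such as Sult2a7 at its lowest, are limited by depth.

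Whether the replicate numbers pair the samples was not settled. Deviations of same-numbered libraries from their group means correlated at -0.249, 0.053, 0.082, 0.088 and 0.156. Of 5 controls 2 matched best the Rspo2-AAV library of their own number. A check on 5 numbers, some of them with Xist in only 1 group, cannot decide this. With the number as a replicate block, 145 genes were higher and 153 lower (2.22% of those tested). Of the members 4 were higher and 6 lower, with 5 Ugt, 0 Aldh and 0 Adh calls, and 9 of the 18 calls remained.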
